A study of Homo sapiens with 16 samples.

Results

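The genes described here are 38 genes of glycolysis and of the transcriptional response to low oxygen, out of 33937 genes in the deposited count table of HCT116, an established human colorectal carcinoma line. They were chosen by name, with earlier results of these data known. They comprise 4 glucose and lactate transporters, 17 glycolytic enzymes and 4 regulators of glycolytic flux. The rest are 2 alpha subunits of the hypoxia-inducible factor (HIF) and 11 other HIF target genes of known function. RNA-seq covered 16 libraries in 4 labelled groups of 4. HCT116 cells stably carrying a scrambled control hairpin were labelled SCR, and those carrying a hairpin against *NAA40*, the gene of a histone N-terminal acetyltransferase, were labelled NAA40-KD. Both lines use a doxycycline (dox)-inducible hairpin, and each was sampled with dox at 1 μg/ml, SCR (+dox) and NAA40-KD (+dox), or without dox, SCR (-dox) and NAA40-KD (-dox), over 96 h. The labels do not name the *NAA40* hairpin, which the paper calls NAA40-KD2, and do not say whether the line is 1 clone or that any culture was kept at low oxygen. The study asked how NAA40 depletion alters transcription. It also measured metabolites, at another dose and time of dox, and reports no major changes in those of glycolysis. Flux through glycolysis was not measured here. The comparisons below are between the labelled groups, for genes of glycolysis and HIF target genes.

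Glycolysis splits glucose into pyruvate, which lactate dehydrogenase turns into lactate. Many tumour lines run it at a high rate even with oxygen present, and most of its steps can be carried out by more than 1 isozyme. HIF is a heterodimer whose alpha subunits are hydroxylated and degraded while oxygen is plentiful, so its activity is set largely at the protein level, and it binds a short DNA core next to many glycolytic genes and other targets.

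The level of *NAA40* did not follow the names of the groups. It was 34.5, 25.9, 29.1 and 28.2 CPM (counts scaled to library size, with edgeR's TMM factors) in the libraries labelled SCR (-dox) and 26.0, 28.4, 26.2 and 28.8 in those labelled SCR (+dox). The 4 libraries of NAA40-KD (-dox) gave 12.6, 11.6, 9.27 and 13.8, and the 4 of NAA40-KD (+dox) gave 31.5, 29.3, 28.7 and 31.9. The low group was therefore the one labelled without dox, at 40.2% of SCR (-dox) with no overlap (p = 0.0286, exact two-sided permutation test over 70 arrangements, the smallest value they can give), while NAA40-KD (+dox) stood at 110.8% of SCR (+dox) (exact p = 0.0571). The short names of the samples and of the count columns end in Dox where the treatment entry says doxycycline and in wDox where it says no doxycycline, and wDox could also be read as with dox. Whether the dox labels are exchanged was not tested. All groups are called by their labels below, and every direction given for a dox group rests on labels that *NAA40* does not follow. Of the 2 comparisons of NAA40-KD with SCR, only that labelled (-dox) sets libraries with lowered *NAA40* RNA against SCR. The one labelled (+dox) does not show what lowered *NAA40* RNA does.

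Total counts ran from 11065606 to 13855486 per library. One library, NAA40-KD (-dox) replicate 4, stood apart from the other 15. It lay at 103.5 on the first principal component against −21.8 to 8.48 for the others, and 5.03% of its counts came from mitochondrial genes, the lowest share of the 16. Counts of genes passing a test that rest on this library are given with and without it. Of the markers of the line, *EPCAM* was at 257 to 397 CPM and *KRT8* at 1530 or more in every library, whereas *CEACAM5* stayed at or under 0.229 CPM. Leukocyte markers summed to 0.702 CPM or less and endothelial markers to 4.86 CPM or less, and of the fibroblast markers *COL1A1* was present at 56.7 to 195 CPM while *COL1A2*, *COL3A1* and *DCN* were at or under 0.373 CPM. In bulk RNA a smaller number of cells of some state and less RNA per cell cannot be told apart.

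The promoter sequences of 4 glycolytic enzymes are shown because HIF binds the core ACGTG or GCGTG, and because *PGK1* and *ALDOC* were the enzymes with the largest differences between the lines. Each run is the 250 bases before the RefSeq start of the gene on build GRCh38.p14, read 5′ to 3′ on the coding strand. Capitals mark the core on either strand, CACGT and CACGC being its reverse complements.
*PGK1*, chrX:78103998-78104247, plus strand: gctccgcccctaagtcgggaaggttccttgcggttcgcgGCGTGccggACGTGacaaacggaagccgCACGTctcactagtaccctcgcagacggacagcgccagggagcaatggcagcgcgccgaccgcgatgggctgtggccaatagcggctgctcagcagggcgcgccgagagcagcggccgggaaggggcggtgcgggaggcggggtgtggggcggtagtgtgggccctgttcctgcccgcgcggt
*ALDOC*, chr17:28576896-28577145, minus strand: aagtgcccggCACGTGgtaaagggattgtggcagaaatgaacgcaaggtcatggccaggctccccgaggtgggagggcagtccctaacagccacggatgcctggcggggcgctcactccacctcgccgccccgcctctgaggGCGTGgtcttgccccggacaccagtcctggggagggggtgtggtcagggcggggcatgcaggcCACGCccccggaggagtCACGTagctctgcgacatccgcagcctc
*LDHA*, chr11:18394313-18394562, plus strand: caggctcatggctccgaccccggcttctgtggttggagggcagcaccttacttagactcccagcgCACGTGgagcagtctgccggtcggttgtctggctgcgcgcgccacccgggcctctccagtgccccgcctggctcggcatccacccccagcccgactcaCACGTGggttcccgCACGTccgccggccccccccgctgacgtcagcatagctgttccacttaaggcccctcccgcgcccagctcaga
*ENO1*, chr1:8878687-8878936, minus strand: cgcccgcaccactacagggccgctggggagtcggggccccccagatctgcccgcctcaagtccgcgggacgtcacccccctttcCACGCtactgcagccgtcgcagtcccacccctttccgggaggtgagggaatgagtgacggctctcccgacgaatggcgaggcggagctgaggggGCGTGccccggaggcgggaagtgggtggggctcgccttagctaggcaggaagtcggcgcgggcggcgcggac

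In *LDHA* the palindrome CACGTG, which holds the core on both strands, stood at 2 places and CACGT at 1 more, and in *ALDOC* CACGTG stood at the far end of the window. Over the whole RefSeq window of 250 bases before to 50 after the start, and with overlapping matches merged, the core was present in 12 of 17 glycolytic enzymes (70.6%) and in 6 of the 8 other HIF targets with an entry (75.0%). The share was 48.4% over all 35116 promoters in the table and 63.4% over the 10582 of genes tested in either comparison of NAA40-KD with SCR, whose promoters had a median GC content of 65.7% against 58.7%. For ACGTG only, the shares were 47.1% of glycolytic enzymes and 62.5% of other HIF targets against 26.9% of tested genes. Of the members, 33 had an entry, and *SLC2A3*, *SLC16A1*, *BNIP3L*, *VEGFA* and *NDRG1* had none. These letters mark matches in sequence, and binding was not measured.

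The members differed widely in level. Per kilobase of merged exons, the libraries labelled SCR (-dox) gave 524 ± 45.1 CPM (SD, n = 4) for *GAPDH*, 388 ± 51.5 for *ENO1* (enolase), 265 ± 33.1 for *ALDOA* (aldolase A) and 256 ± 36.3 for *LDHB*, and the 10 highest members were all glycolytic enzymes. *ENO1* and *GAPDH* did not overlap in their ranges, while the next pair, *ALDOA* and *LDHB*, did. Merged exons are all annotated exons, used in these cells or not, with 6210 bases for *LDHA* and 2983 for *LDHB*. Ranks and other values per length therefore depend on the annotation. The highest member outside the enzymes was *HIF1A*, the alpha subunit HIF-1alpha, at 41.1 ± 5.04 CPM per kilobase. *CA9*, a carbonic anhydrase that low oxygen normally induces strongly, was the lowest at 0.333 ± 0.267, with 3 to 14 counts per library in that group. It did not pass the filter of CPM above 1 in 4 libraries in any comparison, so 37 of the 38 members were tested.

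**Figure D1:**
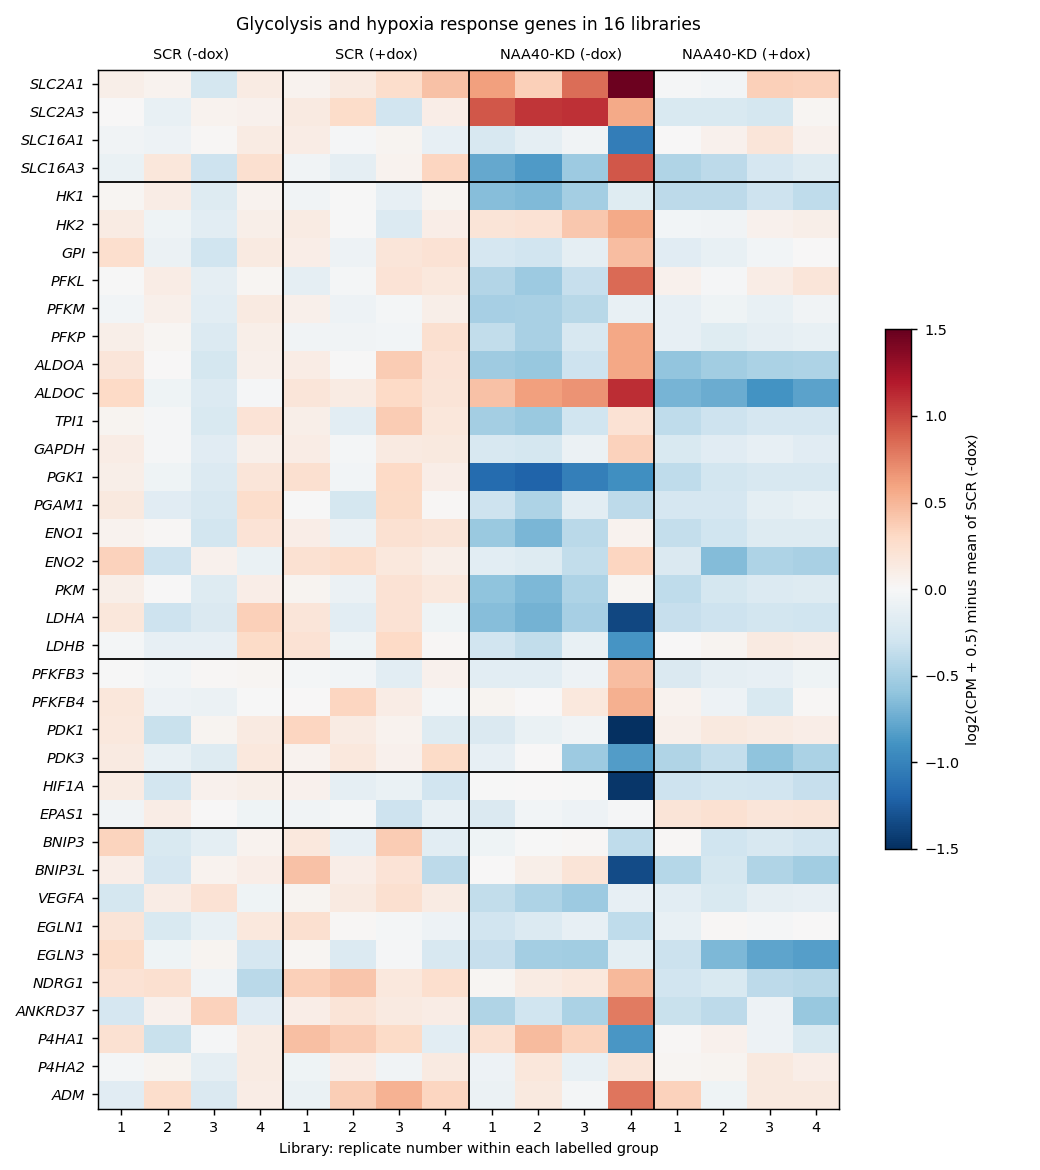
Levels of 37 members (rows, all but *CA9*, in the order transporters, glycolytic enzymes, regulators of flux, HIF alpha subunits and other HIF targets) in 16 libraries (columns), as log2(CPM + 0.5) minus the gene's mean in SCR (-dox). Red is above that mean and blue below it, *PGK1* is low in all 4 NAA40-KD (-dox) libraries, and NAA40-KD (-dox) replicate 4 differs from its group in both directions.

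Between the lines labelled (+dox), many glycolytic transcripts were lower in NAA40-KD. In edgeR's quasi-likelihood test, with p-values adjusted over all genes by the Benjamini-Hochberg method, 10 of 17 glycolytic enzymes fell and 0 rose at an adjusted p under 0.05, and 4 of the 10 other HIF targets tested fell and 0 rose. Over all 13869 genes tested, 13.7% were called lower and 10.9% higher, and 24.5% in either direction. Of all 37 members tested, 16 fell and 1 rose (the HIF-2alpha gene *EPAS1*), and none of these 17 also had an absolute log2 fold change above 1, where 2.15% of all genes had both. The median log2 fold change was −0.34 for glycolytic enzymes, −0.31 for other HIF targets and −0.0042 for all genes tested. In 18 of the 37 members the groups did not overlap beside 27.0% of all genes. Fitted on all 16 libraries, which adds the spread of the other groups, the comparison called 7 members, all lower (*ALDOA*, *ALDOC*, *PGK1*, *ENO2*, *PDK3*, *EGLN3* and *NDRG1*). That fit called 1.93% of all 14392 genes higher and 4.78% lower. These 7 also passed an adjusted p under 0.05 in every other fit run for this comparison. NAA40-KD (-dox) replicate 4 is in neither group compared here. Without it, the fit on all other libraries called 1 member higher and 16 lower, as with the 8 libraries. It called 1647 of 14302 genes higher and 2035 lower. Calls for this comparison given below as lost in the fit on all 16 libraries were held there.

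Between the lines labelled (-dox), 2 of 37 members were called, the glucose transporter gene *SLC2A3* higher and *PGK1* lower, where 6.42% of all 13903 genes were called, 2.88% higher and 3.54% lower. Both also had an absolute log2 fold change above 1, as 3.47% of all genes did. In 6 members the groups did not overlap, beside 21.8% of all genes. The count of calls depended on NAA40-KD (-dox) replicate 4. Without it, 5 members rose and 14 fell, where 17.1% of all genes were called higher and 19.4% lower. The 14 included 11 of 17 glycolytic enzymes and 2 of 10 other HIF targets, the latter near the share of all genes. The 5 were the glucose transporters *SLC2A1* and *SLC2A3*, the hexokinase *HK2*, the aldolase *ALDOC* and the collagen prolyl hydroxylase *P4HA1*. The median of glycolytic enzymes was −0.25 with all 8 libraries and −0.45 without replicate 4, and that of other HIF targets was −0.073 and −0.023, beside 0.038 and −0.0059 over all genes.

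**Figure D2:**
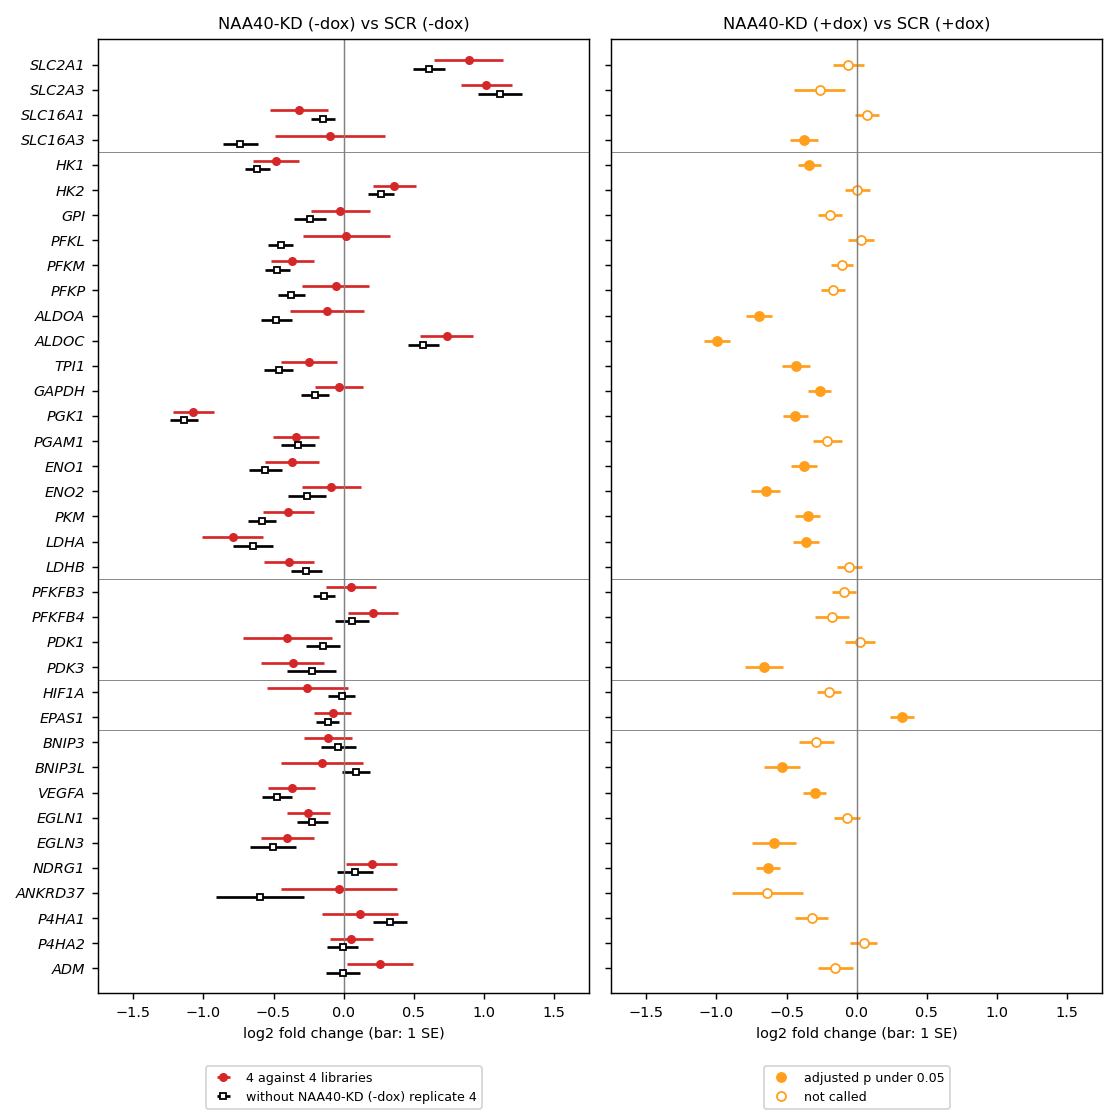
Log2 fold change of NAA40-KD against SCR for 37 members (bars, 1 SE), on the left between libraries labelled (-dox), with all 8 libraries (red circles) and without NAA40-KD (-dox) replicate 4 (open squares), and on the right between libraries labelled (+dox), where filled circles passed an adjusted p under 0.05. *PGK1* lies at −1.07 on the left and −0.44 on the right, and *ALDOC* lies at 0.73 on the left and −0.997 on the right.

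Single libraries differed in the median level of the enzymes. Taking the median over the 17 enzymes of the log2 level relative to SCR (-dox), the libraries labelled SCR (-dox) lay at 0.089, −0.016, −0.20 and 0.10 and those labelled SCR (+dox) at 0.11, −0.056, 0.21 and 0.14. The libraries labelled NAA40-KD (+dox) lay at −0.25, −0.27, −0.19 and −0.19, close together and below all but 1 SCR library, SCR (-dox) replicate 3. Of the libraries labelled NAA40-KD (-dox), replicates 1 to 3 lay lower still at −0.44, −0.49 and −0.31, and replicate 4 lay highest of all 16 at 0.22. In replicate 4 the median hides enzymes that lay apart from the mean of replicates 1 to 3 in both directions. On the log2 scale *PFKL* lay at 1.30 and *ALDOA* at 1.05 from that mean, and *LDHA* at −0.75 and *LDHB* at −0.63. For the 10 other HIF targets tested, the same medians were −0.079, 0.044, −0.069 and −0.13 in NAA40-KD (-dox) and −0.13, −0.23, −0.11 and −0.26 in NAA40-KD (+dox), against 0.14, −0.010, −0.038 and 0.075 in SCR (-dox) and 0.13, 0.12, 0.18 and 0.015 in SCR (+dox). The groups labelled (-dox) overlapped, and those labelled (+dox) did not.

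The departure of replicate 4 went with base composition. Across 37 members tested, its log2 level relative to the other 3 libraries of its group had a Pearson correlation of 0.83 with the GC content of the longest annotated transcript of each gene. Across 13879 genes the correlation was 0.90. Genes in 1 library share its preparation and depth, so these are descriptions. *HIF1A*, at 36.4% GC, was 209.8, 211, 209 and 76.2 CPM in the 4 libraries, and *BNIP3L*, at 38.9% GC, was 68.7, 72.7, 78.3 and 26.7. *PFKL*, the liver-type phosphofructokinase, at 64.1% GC, was 121, 113, 130.2 and 299 CPM. In each the last value, that of replicate 4, stood outside the other 3. *ANKRD37* at 42.1% GC and *PGK1* at 43.3% GC departed from this order, with replicate 4 at 2.28 and 1.15 times the other libraries. Outside that group the same correlation across all genes ran from −0.58 in SCR (+dox) replicate 1 to 0.65 in SCR (+dox) replicate 4. The part of GC content in the results was tested only through an offset. With an offset for GC content, the comparison between the lines labelled (-dox) called 4 members higher and 14 lower, and that between the lines labelled (+dox) called 1 higher and 19 lower. The offset called 17.8% of all genes higher and 18.2% lower in the first and 15.1% higher and 16.7% lower in the second.

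**Figure D3:**
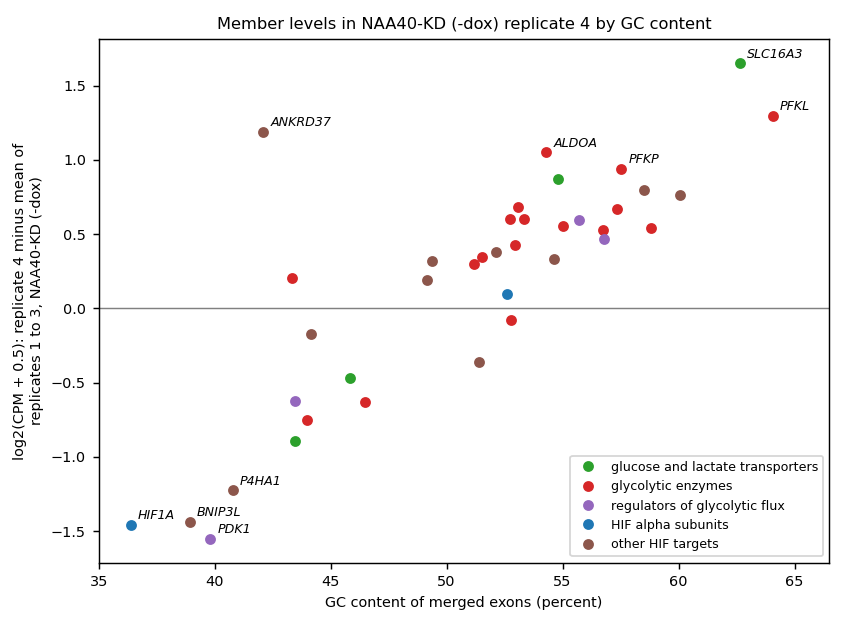
Log2 level of each of the 38 members in NAA40-KD (-dox) replicate 4 minus the mean of replicates 1 to 3 (vertical axis) against the GC content of its longest annotated transcript in percent (horizontal axis, named there as merged exons), coloured by list. Members under 47% GC, other than *PGK1* and *ANKRD37*, lie below 0 and most members above 50% GC lie above it.

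Both glucose transporters were above SCR (-dox) in all 4 libraries labelled NAA40-KD (-dox), and *SLC2A3* passed the test with all libraries. *SLC2A3*, which encodes the transporter GLUT3, was weakly expressed, at 3.92, 3.56, 4.05 and 4.11 CPM in SCR (-dox) and 4.33, 4.84, 3.12 and 4.21 in SCR (+dox), with 40 to 54 and 42 to 62 counts per library. It was at 7.91, 8.75, 8.90 and 6.01 CPM in NAA40-KD (-dox) and 3.27, 3.26, 3.18 and 3.98 in NAA40-KD (+dox). All 4 libraries labelled NAA40-KD (-dox) stood above the other 12, 2.02-fold higher than SCR (-dox) (log2 fold change 1.02, SE 0.18, edgeR adjusted p = 0.0133). That call was lost when SCR (-dox) replicate 1, 2 or 3 was left out (adjusted p = 0.0579, 0.0573 and 0.055), and it was 6.53e-05 without NAA40-KD (-dox) replicate 4. Its annotated pseudogene held at most 6.98% of the counts of gene and pseudogene together in a library. Against SCR (+dox) its log2 fold change was −0.26 (adjusted p = 0.311), and those groups overlapped.

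*SLC2A1*, which encodes GLUT1, the main glucose transporter of many tumour lines, was at 83.9, 81.9, 65.6 and 86.3 CPM in SCR (-dox) and 81.9, 86.7, 95 and 108 in SCR (+dox). It was at 121, 102, 141 and 220.4 in NAA40-KD (-dox) and 78.1, 76.8, 101 and 100.2 in NAA40-KD (+dox). The NAA40-KD (-dox) libraries did not overlap SCR (-dox), but with the high replicate 4 the difference missed the threshold (log2 fold change 0.89, SE 0.25, edgeR adjusted p = 0.0608), and without it the difference was smaller and passed (log2 fold change 0.61, SE 0.11, edgeR adjusted p = 0.000741). Against SCR (+dox) the log2 fold change was −0.060 (adjusted p = 0.732).

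The lactate transporters did not follow the glucose transporters. *SLC16A3* encodes MCT4, which exports lactate and is a known HIF target. It was at 209.7, 254, 181 and 265 CPM in SCR (-dox), 218, 206, 234 and 280.4 in SCR (+dox), 132, 125, 154 and 429.9 in NAA40-KD (-dox) and 165, 171, 189 and 196 in NAA40-KD (+dox). The libraries labelled NAA40-KD (+dox) all lay below those labelled SCR (+dox) (log2 fold change −0.38, SE 0.10, edgeR adjusted p = 0.0103), a call that was lost in the fit on all 16 libraries (adjusted p = 0.516) and without NAA40-KD (+dox) replicate 1 (0.0505). Against SCR (-dox) replicates 1 to 3 lay below SCR and replicate 4 far above it, with a log2 fold change of −0.10 with all 8 libraries and −0.74 without replicate 4 (edgeR adjusted p = 0.911 and 0.000356). *SLC16A1*, which encodes MCT1, passed in neither comparison with SCR, with log2 fold changes of −0.32 for (-dox), −0.15 without replicate 4, and 0.073 for (+dox). With the GC offset it was lower in NAA40-KD (-dox) (−0.23, edgeR adjusted p = 0.0426).

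Of the enzymes, *PGK1*, the phosphoglycerate kinase that makes the first ATP of glycolysis, fell most in the libraries labelled NAA40-KD (-dox). Its levels were 428, 385, 349.5 and 456 CPM in SCR (-dox) and 476, 392, 495 and 432 in SCR (+dox). They were 181, 176, 198 and 213 in NAA40-KD (-dox) and 309.7, 333, 342 and 340.3 in NAA40-KD (+dox), with 2307 to 2712 counts per library in the lowest group. All 8 NAA40-KD libraries lay below all 8 SCR libraries, and the 4 labelled (-dox) lay lowest, replicate 4 included. *PGK1* stood at 47.6% of SCR between the lines labelled (-dox) (log2 fold change −1.07, SE 0.15, edgeR adjusted p = 0.00507) and at 73.8% between those labelled (+dox) (log2 fold change −0.44, SE 0.089, edgeR adjusted p = 0.0017). Without replicate 4 the first was −1.14, and *PGK1* passed an adjusted p under 0.05 in every fit run for both comparisons. The annotated span of *PGK1* on GRCh38, chrX:77910739-78129296 on the plus strand, shares exons with *ATP7A* on the same strand, so counts of the shared part are uncertain.

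*ALDOC*, a second aldolase known best from brain, lay on opposite sides of SCR in the groups labelled NAA40-KD (-dox) and (+dox). It was at 65.4, 51.0, 46.1 and 52.4 CPM in SCR (-dox) and 60.4, 58.0, 65.8 and 61.2 in SCR (+dox). It was at 72.6, 81.8, 85.2 and 115 in NAA40-KD (-dox) and 32.5, 31.7, 28.4 and 30.5 in NAA40-KD (+dox). All libraries labelled NAA40-KD (-dox) lay above both SCR groups and all labelled NAA40-KD (+dox) below them. Against SCR (+dox) it stood at 50.1% of SCR (log2 fold change −0.997, SE 0.092, edgeR adjusted p = 5.21e-07), and this passed an adjusted p under 0.05 in every fit run. Against SCR (-dox) it was 1.66 times SCR and just missed the threshold (log2 fold change 0.73, SE 0.19, edgeR adjusted p = 0.0514), and without replicate 4 it passed (log2 fold change 0.57, SE 0.11, edgeR adjusted p = 0.000901), as it did in the fit on all 16 libraries (adjusted p = 0.00186). Its exons overlap those of AC005726.4 on the opposite strand, and whether counting used strand is not given in the sources used here, so reads of the partner cannot be told apart. The exons of 24 of the 38 members overlap those of another annotated gene.

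*ALDOA*, the main aldolase of the line, was at 1115, 1028, 1345 and 1188 CPM in SCR (+dox) and 681, 719, 739 and 746 in NAA40-KD (+dox), with no overlap (log2 fold change −0.70, SE 0.091, edgeR adjusted p = 2.87e-05). In SCR (-dox) it was at 1165, 1030.0, 859.6 and 1089 and in NAA40-KD (-dox) at 710.3, 696, 829.5 and 1541, where the first 3 libraries lay below every SCR library and replicate 4 above, with a log2 fold change of −0.12 with replicate 4 and −0.48 without it (edgeR adjusted p = 0.825 and 0.00299). *LDHA*, the muscle-type subunit of lactate dehydrogenase, was at 837, 603, 641 and 954 CPM in SCR (-dox), 848, 669.7, 864 and 712 in SCR (+dox), 479, 456, 526 and 288 in NAA40-KD (-dox) and 586, 602, 615 and 606 in NAA40-KD (+dox). Both NAA40-KD groups lay below the SCR group of the same label, and the difference passed between the lines labelled (+dox) (log2 fold change −0.36, SE 0.092, edgeR adjusted p = 0.00837). Between those labelled (-dox) it missed the threshold with all 8 libraries and passed without replicate 4, whose value was the lowest of all (log2 fold change −0.79, SE 0.22, edgeR adjusted p = 0.0608, and adjusted p = 0.00285 without it). In the fit on all 16 libraries the adjusted p was 0.248 for (+dox) and 0.00407 for (-dox).

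**Figure D4:**
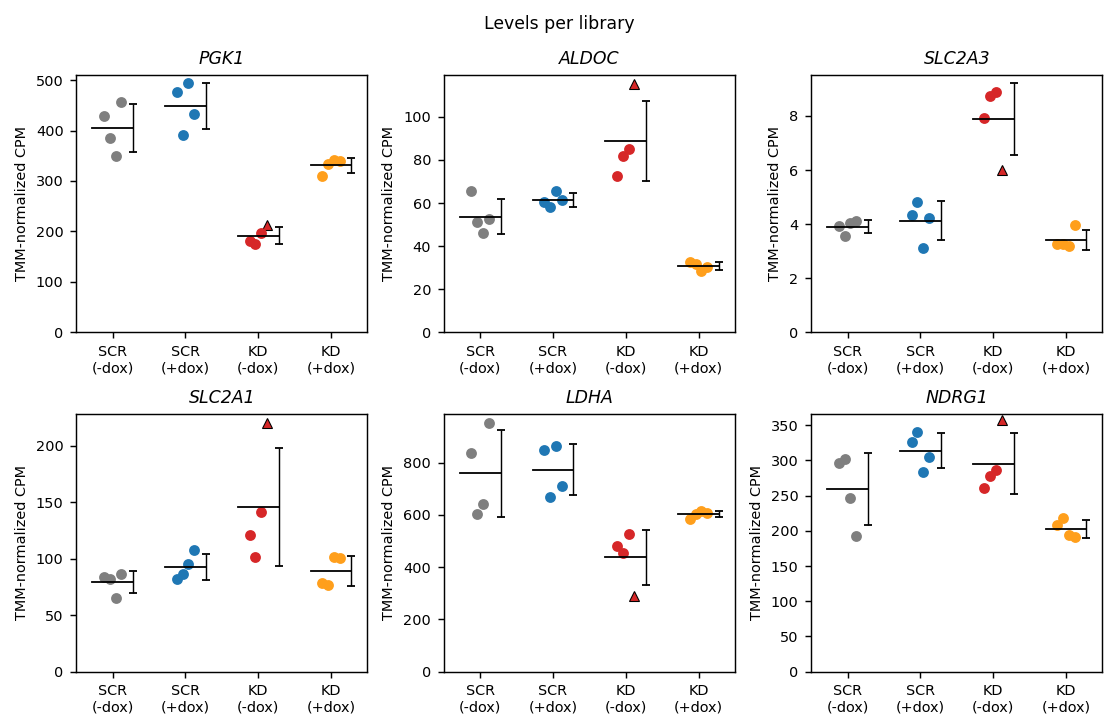
TMM-normalized CPM of 6 members in each library of the 4 labelled groups (KD, NAA40-KD), with the group mean (line) and 1 SD (bar, n = 4). Triangles are NAA40-KD (-dox) replicate 4, and the vertical axes start at 0. *PGK1* is lowest and *ALDOC*, *SLC2A3* and *SLC2A1* are highest in the group labelled NAA40-KD (-dox).

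Of the other enzymes that fell between the lines labelled (+dox), *ENO2* fell most. *ENO2*, the neuronal enolase, was at 42.3, 43.3, 40.1 and 38.1 CPM in SCR (+dox) and 30.7, 22.6, 25.9 and 25.4 in NAA40-KD (+dox), without overlap (log2 fold change −0.65, SE 0.11, edgeR adjusted p = 0.000241). *TPI1*, triose phosphate isomerase, fell to 74.0% of SCR, *ENO1* to 77%, *PKM* (pyruvate kinase) to 78.5%, *HK1* (hexokinase 1) to 79.2% and *GAPDH*, a common reference gene for normalization, to 83.2%. Their edgeR adjusted p-values were 0.00438, 0.00578, 0.0086, 0.00539 and 0.024, and in each the groups did not overlap. The call of *GAPDH* was lost when any 1 of the 4 libraries labelled NAA40-KD (+dox) was left out (adjusted p from 0.064 to 0.0928). All 5 calls were lost in the fit on all 16 libraries, with adjusted p-values from 0.101 to 0.237. The 7 enzymes not called were *HK2*, *GPI*, *PFKL*, *PFKM*, *PFKP*, *PGAM1* and *LDHB*, with log2 fold changes from −0.21 to 0.030, and they include all 3 phosphofructokinase genes, whose products commit glucose to glycolysis.

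Against SCR (-dox) and without replicate 4, the phosphofructokinases were among the enzymes that fell. *PFKM*, the muscle type, was at 162, 176, 149 and 183 CPM in SCR (-dox) and 118, 119, 125 and 154 in NAA40-KD (-dox), and without the last of these it passed (log2 fold change −0.47, SE 0.089, edgeR adjusted p = 0.000721). *PFKL* stood at 73.2% and *PFKP*, the platelet type, at 77.2% of SCR without replicate 4 (edgeR adjusted p = 0.000976 and 0.00626). With all 8 libraries, *PFKL* and *PFKP* had log2 fold changes of 0.019 and −0.058 and were not called. *PKM*, *ENO1*, *TPI1* and *HK1* fell to 66.7%, 67.9%, 72.6% and 65.3% without replicate 4 and were not called with all 8 libraries. With replicate 4 kept, the GC offset called these 6 and *PFKM* lower (edgeR adjusted p = 0.00583 for *PFKL* and 0.000151 for *HK1*), and the fit on all 16 libraries called *HK1*, *PFKM* and *PKM* lower. *GPI*, *GAPDH*, *ENO2* and *LDHB* passed neither with all 8 libraries nor without replicate 4, and *LDHB* passed with the GC offset (adjusted p = 0.0349).

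Ratios of isozymes within a library carry no library scaling. They are given as log2 ratios of CPM, with no test. *HK2*/*HK1* was −0.25, −0.53, −0.33 and −0.32 in SCR (-dox) and −0.18, −0.37, −0.44 and −0.29 in SCR (+dox). It was −0.0013, −0.024, 0.018 and 0.12 in NAA40-KD (+dox) and 0.48, 0.53, 0.55 and 0.39 in NAA40-KD (-dox). Both NAA40-KD groups lay above both SCR groups and the group labelled (-dox) above the group labelled (+dox), replicate 4 included. Per length of merged exons, *HK2*, the hexokinase isoform that many tumours induce, was 72.0 to 87.1% of *HK1* in SCR (-dox) and 136 to 152% in NAA40-KD (-dox).

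*LDHB*/*LDHA*, of the heart-type to the muscle-type subunit, was −0.17, 0.20, 0.12 and −0.048 in SCR (-dox) and 0.057, 0.11, 0.11 and 0.11 in SCR (+dox). It was 0.38, 0.37, 0.42 and 0.51 in NAA40-KD (-dox) and 0.37, 0.38, 0.44 and 0.43 in NAA40-KD (+dox). All 8 NAA40-KD libraries lay above all 8 SCR libraries, while the 2 NAA40-KD groups overlapped. The longest annotated transcripts of *LDHA* and *LDHB* had similar GC content, 44.0% and 46.5%, and those of *HK1* and *HK2* 53.0% and 51.2%. *ALDOC*/*ALDOA* was −4.38 to −4.15 in SCR (-dox), −4.35 to −4.15 in SCR (+dox), −3.74 to −3.09 in NAA40-KD (-dox) and −4.70 to −4.39 in NAA40-KD (+dox). Per length *ALDOC* was 10.0 to 15.7% of *ALDOA* in NAA40-KD (-dox), above every other library, and 5.15 to 6.39% in NAA40-KD (+dox), below every other library.

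**Figure D5:**
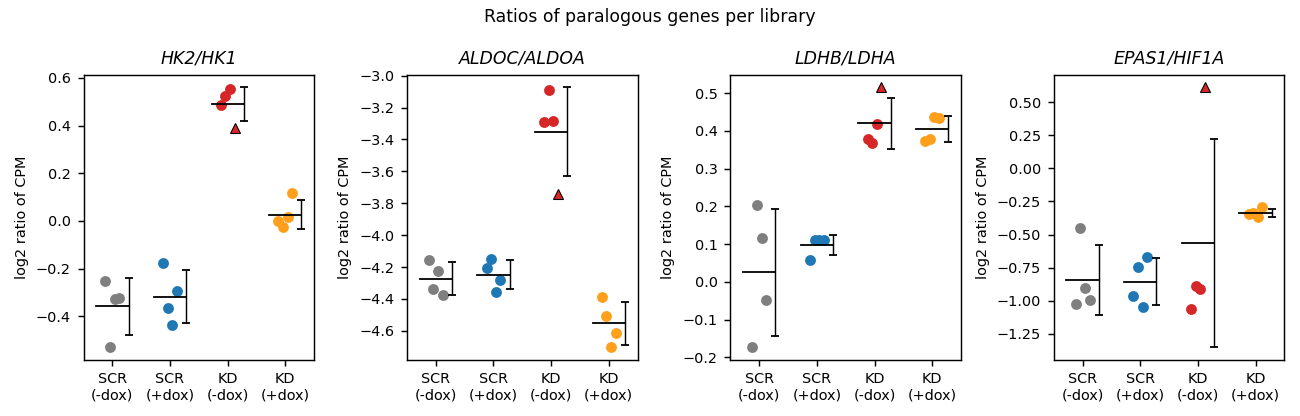
Log2 ratio of CPM of 2 paralogous genes in each library of the 4 labelled groups (KD, NAA40-KD), with the group mean (line) and 1 SD (bar, n = 4). Triangles are NAA40-KD (-dox) replicate 4, and vertical axes do not start at 0. For *HK2*/*HK1* and *LDHB*/*LDHA* all NAA40-KD libraries lie above all SCR libraries.

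Of the other pairs, *PDK3*/*PDK1* was −2.62 to −2.38 in NAA40-KD (+dox), below both SCR groups at −2.09 to −1.63 and −2.11 to −1.36. *EPAS1*/*HIF1A* was −0.37 to −0.29 in NAA40-KD (+dox), above both SCR groups at −1.03 to −0.45 and −1.05 to −0.67. For *ENO2*/*ENO1*, *PFKFB4*/*PFKFB3*, *BNIP3L*/*BNIP3* and *P4HA2*/*P4HA1* no pair of groups stood apart. For the remaining 5 pairs only NAA40-KD (+dox) stood apart, and from 1 SCR group.

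Of the 4 regulators of flux, 1 was called between the lines labelled (+dox) and 0 between those labelled (-dox), where 24.5% and 6.42% of all genes were called. *PFKFB3* and *PFKFB4* make fructose 2,6-bisphosphate, which activates phosphofructokinase. *PDK1* and *PDK3* are kinases that switch off pyruvate dehydrogenase, which uses pyruvate inside the mitochondria. *PDK3* was at 8.26, 8.89, 8.31 and 9.73 CPM in SCR (+dox) and 5.64, 6.07, 5.02 and 5.55 in NAA40-KD (+dox), all lower without overlap (log2 fold change −0.66, SE 0.14, edgeR adjusted p = 0.00201), with 105 to 134 and 62 to 82 counts per library. The other 3 had log2 fold changes from −0.18 to 0.022 in that comparison. Leaving out replicate 4 gave no call between the lines labelled (-dox) either, where 36.5% of all genes were called. *PDK1* was at 24.4, 26.5, 27.4 and 8.56 CPM in NAA40-KD (-dox), where replicate 4 was far below the other 3.

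The alpha subunits differed. *EPAS1*, which encodes HIF-2alpha, was at 113, 115, 94.7 and 109 CPM in SCR (+dox) and 134, 138, 133 and 135 in NAA40-KD (+dox), all higher (log2 fold change 0.32, SE 0.085, edgeR adjusted p = 0.0099). It was at 113, 127, 118 and 112 in SCR (-dox) and 101, 114, 111 and 116 in NAA40-KD (-dox), which overlapped, so the 4 libraries labelled NAA40-KD (+dox) were the highest of the 16. In the fit on all 16 libraries its adjusted p was 0.0605. *HIF1A* was at 220.3, 192, 196 and 172 CPM in SCR (+dox) and 169.9, 174, 172 and 165 in NAA40-KD (+dox), which overlapped and did not pass (log2 fold change −0.20, SE 0.086, edgeR adjusted p = 0.102). Against SCR (-dox) its log2 fold change was −0.26 with replicate 4 and −0.015 without it (edgeR adjusted p = 0.633 and 0.924). Levels of HIF protein were not measured here.

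Among the other HIF targets, *NDRG1*, a stress- and hypoxia-induced gene, had the lowest adjusted p. It was at 326, 340.5, 284 and 305 CPM in SCR (+dox) and 209, 218, 194 and 191 in NAA40-KD (+dox), without overlap (log2 fold change −0.63, SE 0.086, edgeR adjusted p = 4.6e-05). In SCR (-dox) it was at 297, 302, 246 and 192 and in NAA40-KD (-dox) at 261, 277, 286 and 358, which overlapped (log2 fold change 0.20, SE 0.18, edgeR adjusted p = 0.546, and 0.080 with adjusted p = 0.657 without replicate 4). *EGLN3*, an oxygen-sensing prolyl hydroxylase that HIF induces, was at 8.5, 7.18, 8.24 and 6.97 CPM in SCR (+dox) and 6.55, 5.03, 4.58 and 4.48 in NAA40-KD (+dox), without overlap (log2 fold change −0.59, SE 0.16, edgeR adjusted p = 0.0102), with 92 to 111 and 62 to 72 counts per library. Against SCR (-dox) it was not called with all 8 libraries and passed without replicate 4 (log2 fold change −0.51, SE 0.16, edgeR adjusted p = 0.024).

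*VEGFA*, the vascular growth factor, was at 77.6, 82.8, 89.1 and 82.4 CPM in SCR (+dox) and 67.5, 64.3, 68.5 and 69.2 in NAA40-KD (+dox), all lower (log2 fold change −0.30, SE 0.084, edgeR adjusted p = 0.0136). This call was lost in the fit on all 16 libraries (adjusted p = 0.164) and without NAA40-KD (+dox) replicate 2 (0.0598). Against SCR (-dox) *VEGFA* likewise passed without replicate 4 and not with it (log2 fold change −0.48, SE 0.11, edgeR adjusted p = 0.00319). *BNIP3L*, a mitophagy receptor, was at 92.5, 72.9, 78.9 and 51.8 CPM in SCR (+dox) and 50.7, 56.7, 49.9 and 47.3 in NAA40-KD (+dox), where SCR (+dox) replicate 4 lay within the other group (log2 fold change −0.53, SE 0.13, edgeR adjusted p = 0.00687). In the fit on all 16 libraries its adjusted p was 0.228. *EGLN1*, *BNIP3*, *P4HA1*, *P4HA2*, *ADM* and *ANKRD37* passed in neither comparison with all libraries. Of these *P4HA1* was at 31.7 to 47.1 CPM in SCR (-dox) and, in NAA40-KD (-dox), at 46.8, 55.8, 50.7 and 21.6, and passed without replicate 4 (log2 fold change 0.33, SE 0.12, edgeR adjusted p = 0.0417).

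Within the NAA40-KD line, the libraries labelled (+dox) were compared with those labelled (-dox). This comparison shares its groups with the 2 above, so its values are not independent of them. It called 1 member higher and 3 lower by the same test, where 4.71% of all genes were higher, 5.50% lower and 10.2% called in all. *PGK1* was 1.72 times higher in the libraries labelled (+dox) (log2 fold change 0.79, SE 0.12, edgeR adjusted p = 0.00545), *ALDOC* stood at 34.6% (log2 fold change −1.53, SE 0.17, edgeR adjusted p = 0.00227) and *SLC2A3* at 43.4% (log2 fold change −1.21, SE 0.18, edgeR adjusted p = 0.00545). These 3 passed an adjusted p under 0.05 in every fit run, and *ALDOC* and *SLC2A3* also had an absolute log2 fold change above 1, as 3.99% of all genes did. In 12 members the groups did not overlap, beside 29.7% of all genes. *NDRG1* stood at 68.5% (log2 fold change −0.55, SE 0.13, edgeR adjusted p = 0.0345), and its call held without NAA40-KD (-dox) replicate 4 and was lost on leaving out any other library (adjusted p from 0.0508 to 0.129), with no filter on low counts (0.161) and with the replicate number as a block (0.0978). Without NAA40-KD (-dox) replicate 4, 17 members were higher and 9 lower, where 25.8% of all genes were higher and 26.6% lower. The 17 included 11 glycolytic enzymes, and the median of the enzymes was 0.074 with and 0.22 without replicate 4.

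In the SCR line, libraries labelled (+dox) and (-dox) differed in 0 of 37 members and 0 of 13882 genes (0.00%) by edgeR's quasi-likelihood test. At an unadjusted p under 0.05 it gave 0 members and 271 genes (1.95%), and DESeq2 and limma-voom also called 0 of each. Member log2 fold changes ran from −0.13 (*EPAS1*) to 0.28 (*ADM*), with medians of 0.085 for glycolytic enzymes and 0.11 for other HIF targets. No member separated the 2 groups, which 1.58% of all genes did.

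The interaction of line and dox label compares the difference between (+dox) and (-dox) libraries in NAA40-KD with that in SCR. Over all 14392 genes, 9.22% passed in a fit on all 16 libraries, 4.31% upward and 4.91% downward. Of the members 5 passed, 1 upward and 4 downward. In 2 of them the interaction was also above 1 in absolute size, as in 4.49% of all genes. *ALDOC* had an interaction of −1.72 on the log2 scale (SE 0.20, edgeR adjusted p = 0.000165), *SLC2A3* of −1.28 (SE 0.24, adjusted p = 0.00376) and *NDRG1* of −0.82 (SE 0.20, adjusted p = 0.016). These 3 passed an adjusted p under 0.05 in every fit run. *PGK1* had an interaction of 0.64 (SE 0.16, adjusted p = 0.0176), which an offset for GC content brought to 0.44 (adjusted p = 0.147) and which also missed the threshold with no filter on low counts (0.67, adjusted p = 0.109). *SLC2A1* had one of −0.94 (SE 0.28, adjusted p = 0.0414) that passed in 3 of the 16 fits that left out 1 library, those without NAA40-KD (-dox) replicate 1, 2 or 4. Without NAA40-KD (-dox) replicate 4, 4 members passed upward (*PGK1*, *PFKM*, *PFKL* and *EPAS1*) and 6 downward (*SLC2A1*, *SLC2A3*, *ALDOC*, *BNIP3L*, *NDRG1* and *P4HA1*), where 11.9% of all genes passed upward and 12.3% downward.

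Neighbouring pathways were counted in lists of their own. Of 25 further HIF targets, 23 were tested between the lines labelled (+dox), and 12 fell and 2 rose, where 13.7% of all genes fell and 10.9% rose. The 3 largest falls were of *DDIT4*, an inhibitor of the mTORC1 kinase, at 73.8, 74.9, 89.1 and 89.8 CPM in SCR (+dox) and 28.5, 28.8, 34.6 and 40.8 in NAA40-KD (+dox) (log2 fold change −1.30, SE 0.12, edgeR adjusted p = 4.46e-07), of *ERO1A*, an oxidase of the endoplasmic reticulum (log2 fold change −0.78, SE 0.10, edgeR adjusted p = 2.24e-05), and of *ANGPTL4*, a secreted inhibitor of lipoprotein lipase (log2 fold change −0.76, SE 0.12, edgeR adjusted p = 0.000234). The 2 that rose were *PFKFB2*, a relative of *PFKFB3* (log2 fold change 0.69, SE 0.10, edgeR adjusted p = 5.05e-05), and the adenylate kinase *AK4* (log2 fold change 0.25, SE 0.088, edgeR adjusted p = 0.0467). *PFKFB2* also rose between the lines labelled (-dox) (log2 fold change 0.93, SE 0.15, edgeR adjusted p = 0.0103), where 2 further targets fell, the carbonic anhydrase *CA12* (log2 fold change −0.94, SE 0.22, edgeR adjusted p = 0.0362) and the secreted glycoprotein *STC2* (log2 fold change −0.68, SE 0.16, edgeR adjusted p = 0.037). Of the 8 fits that left out 1 library, *AK4* held its call in 2, *CA12* in 3 and *STC2* in 1, that without NAA40-KD (-dox) replicate 4, and *PFKFB2* held both in all 8. Without that library, 6 further targets rose and 9 fell between the lines labelled (-dox), where 17.1% of all genes rose and 19.4% fell.

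Of the HIF machinery, 10 of 11 genes were tested. Between the lines labelled (+dox), where 13.7% of all genes fell and 10.9% rose, only the elongins *ELOB* and *ELOC*, partners of the VHL ubiquitin ligase, fell (log2 fold change −0.36 and −0.33, edgeR adjusted p = 0.0456 and 0.0421). Each of these held in 2 of the 8 fits that left out 1 library. Of 22 further glycolytic and gluconeogenic enzymes 12 were tested and 3 fell there. *PCK2*, the mitochondrial phosphoenolpyruvate carboxykinase, was at 126, 121, 147 and 155 CPM in SCR (+dox) and 43.5, 43.0, 49.8 and 51.9 in NAA40-KD (+dox) (log2 fold change −1.55, SE 0.10, edgeR adjusted p = 1.57e-08), and the others were the hexokinase-like *HKDC1* (−0.97, adjusted p = 0.00062) and the ADP-dependent glucokinase *ADPGK* (−0.42, adjusted p = 0.00248). Of 13 genes of pyruvate entry to mitochondria and of its use there, *PDK4* (−0.79, adjusted p = 0.00173) and *PDHB* (−0.39, adjusted p = 0.00851) fell and *PDP2* (0.35, adjusted p = 0.0319) rose. *PDP2* held its call in 3 of the 8 fits that left out 1 library. Of 7 pentose phosphate genes, *PGD* rose (0.31, adjusted p = 0.0138) and *TALDO1* fell (−0.36, adjusted p = 0.0163). In these last 3 lists together, 2 of 32 genes tested rose and 6 fell between the lines labelled (+dox), beside the shares of all genes just given. Against SCR (-dox), 0 of these 32 genes passed with all 8 libraries, where 6.42% of all genes did. Without NAA40-KD (-dox) replicate 4, 5 of them rose and 6 fell, and with the GC offset and all 8 libraries 6 rose and 6 fell, both near the shares of all genes given above. Of the HIF machinery *ARNT2*, a relative of the constant HIF subunit, fell (−0.59, adjusted p = 0.049), which held in 1 of 8 fits that left out 1 library, that without NAA40-KD (-dox) replicate 4. Values in brackets without a name are log2 fold changes.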

How the data were processed

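Counts per gene were deposited by the authors for 16 libraries of HCT116 cells in 4 labelled groups of 4. The methods describe independent RNA samples in each condition but not whether they came from separate cultures, so p-values measure the spread between these libraries, which may be technical. The submitters' processing notes name STAR, featureCounts and limma, and the methods name the mouse build mm10, whereas all identifiers are human Ensembl genes. The methods name a stranded library kit, where the labels give Illumina protocols, and a CPM filter above 1, while the deposited table still holds genes below it. The strand setting of featureCounts is not given in the sources used here. Total counts were 11065606 to 13855486 per library.

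The 38 members and the context lists were chosen with earlier results of these data known. Counts were tested with edgeR 4.0.16 (robust quasi-likelihood F test, TMM factors, CPM above 1 in at least 4 libraries of the fit, Benjamini-Hochberg adjustment over all genes, called at an adjusted p under 0.05) in R 4.3.3, each comparison on its own 8 libraries and the interaction on all 16. The standard error was the log2 fold change divided by the root of F. Levels are TMM-scaled CPM, with 0.5 added for logs, and gene lengths, GC content and overlaps are from GENCODE release 29 (GRCh38). Lengths are those of merged exons, and GC content is that of the longest annotated transcript of each gene. The procedure was checked on simulated counts. Every member may be named, and of each context list up to 3 rises and 3 falls with the largest log2 fold change among genes called. Alternatives were DESeq2 1.42.0, limma-voom (limma 3.58.1), other scalings and filters, all 16 libraries in the fit, a replicate block, a GC offset, and each library left out. After the data were seen, 2 more were added, the GC offset without NAA40-KD (-dox) replicate 4, and all other libraries fitted without it. Replicate pairs were compared by chi-square, which gave 1.74 or more per degree of freedom, so none was counted as 1 library deposited again. The spread was unequal between groups. Pairs gave 1.74 to 4.44 in NAA40-KD (+dox), 8.61 to 24.0 in SCR (+dox) and 9.76 to 40.5 in SCR (-dox). In NAA40-KD (-dox), pairs of replicates 1 to 3 gave 2.43 to 7.16 and pairs with replicate 4 gave 128 to 140.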

Additional observations from a re-analysis of the deposited data

Results flagged for a closer look

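Among 152 groups of 4 libraries, 14 held a library whose gap to the nearest other exceeded Dixon's 95% critical value, where chance gives about 1 in 20. Of these, 8 were NAA40-KD (-dox) replicate 4. It lay at 429.9 CPM for *SLC16A3*, 559.5 for *GPI*, 299 for *PFKL*, 1541 for *ALDOA*, 103 for *PFKFB3* and 2.96 for *ANKRD37*, above the other 3 libraries of its group. It lay at 8.56 CPM for *PDK1* and 76.2 for *HIF1A*, below them. The others were *SLC2A3* at 3.98 CPM in NAA40-KD (+dox) replicate 4, *HK1* at 109 in NAA40-KD (+dox) replicate 3, *BNIP3* at 33.6 in NAA40-KD (+dox) replicate 1 and *PFKP* at 307 in SCR (+dox) replicate 4, each above its group. In SCR (-dox) replicate 2, *HIF1A* at 173 CPM and *BNIP3L* at 57.4 lay below their group.

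For 5 members the difference between libraries labelled (+dox) and (-dox) was not the same in the lines, by the interaction in edgeR's quasi-likelihood test. Its sign rests on dox labels that *NAA40* does not follow. The difference on the log2 scale, NAA40-KD minus SCR, was −1.72 for *ALDOC*, −1.28 for *SLC2A3*, −0.94 for *SLC2A1*, −0.82 for *NDRG1* and 0.64 for *PGK1*.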

How the results depend on the processing

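Of the counts of members called, 88 stayed within 1.5 times under an alternative, 16 were higher and 10 lower, and of the medians 187 moved by less than the spread of replicates. Between the lines labelled (-dox), 2 members were called, and the count was 6 with DESeq2, 4 with no filter on low counts, 10 with all 16 libraries in the fit, 18 with the GC offset, 19 with the GC offset and without NAA40-KD (-dox) replicate 4, 19 with all other libraries, 1 at an adjusted p under 0.01 and 5 under 0.1, and 1 to 19 with 1 library left out. The median of other HIF targets became 0.0076 with the GC offset. Between the lines labelled (+dox), 17 became 7 with all 16 libraries, and the count was 17 with all other libraries without NAA40-KD (-dox) replicate 4. It became 0 with an absolute log2 fold change above 1, and 15 to 20 with 1 library left out, when the median of other HIF targets ran from −0.40 to −0.29. Within the NAA40-KD line, 4 became 8 with all 16 libraries, 19 with the GC offset, 26 with it and without replicate 4, 18 with all other libraries without replicate 4, 2 with the fold threshold, and 3 to 26 with 1 library left out. The median of other HIF targets was there −0.046 with the GC offset and −0.056 with all other libraries, both without replicate 4, and −0.19 to −0.056 with 1 library left out. For the interaction, 5 became 11 with the GC offset, with or without replicate 4, 2 at an adjusted p under 0.01, 2 with the fold threshold and 4 to 10 with 1 library left out, and the median of other HIF targets was −0.35 with no filter, −0.19 with CPM above 1 in every library, −0.16 with the GC offset, −0.12 with it and without replicate 4, and −0.34 to −0.13 with 1 library left out. The core ACGTG only was found in 14 promoters of members against 24. The cause of these changes was not tested, apart from fewer libraries or a stricter threshold.

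Directions turned for members near 0. *PFKL*, at 0.019 between the lines labelled (-dox), was −0.12 with limma-voom, −0.031 with library size only, −0.035 with no filter, −0.12 with the replicate block, −0.30 with the GC offset, −0.33 with it and without replicate 4, and −0.44 with all other libraries. Within the NAA40-KD line the GC offset, the same without replicate 4, and all other libraries gave 0.17, 0.33 and 0.39 for *SLC16A3*, 0.059, 0.14 and 0.14 for *GPI*, 0.17, 0.21 and 0.22 for *PFKP*, and 0.16, 0.14 and 0.15 for *TPI1*, and *HIF1A* was 0.054 with limma-voom and 0.048 with the block. Leaving out 1 library turned the sign between the lines labelled (-dox) of *SLC16A3* (−0.74 to 0.094), *PFKL* (−0.45 to 0.17), *PFKP* (−0.37 to 0.066), *ALDOA* (−0.48 to 0.0084) and *P4HA1* (−0.020 to 0.33), within the NAA40-KD line of *SLC16A3* (−0.42 to 0.39), *GPI* (−0.15 to 0.14), *PFKL* (−0.079 to 0.53), *PFKP* (−0.20 to 0.22), *TPI1* (−0.15 to 0.15) and *HIF1A* (−0.31 to 0.040), and in the interaction of *PFKL* (−0.12 to 0.47).

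Replicate numbers are shared between groups. Same-numbered libraries deviated together with correlations of −0.42 to 0.24 over all comparisons and of 0.034 to 0.24 within the NAA40-KD line, where 3 of 4 were above 0.1. In that line, replicates 2, 3 and 4 labelled (+dox) each correlated best with the (-dox) library of their own number. So did NAA40-KD (+dox) replicates 3 and 4 with the libraries labelled SCR (+dox). The main fits did not take same-numbered libraries as pairs. With the replicate number as a block, 1 member was called between the lines labelled (-dox), *PGK1*, and 3 within the NAA40-KD line, without *NDRG1*. *CA9* was too low in CPM to pass the filter and could not be tested.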
